A study of Homo sapiens with 8 samples.

Results

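VIM, GFAP, SOX2, NES, CD44, LGALS1, TNC, MMP2 and AXL are genes by which glial and mesenchymal glioma cells are commonly recognised. These 9 genes were taken by symbol from the 23228 genes listed for every library, and all 9 had a row. The 8 RNA-seq libraries carry the label U87 MG, which is a long-established cell line from a human glioblastoma, and the cells were grown in DMEM with serum. The series addresses whether isoforms of estrogen receptor beta (ERβ, gene ESR2) act differently on glioblastoma cells. The 4 groups hold 2 libraries each. The group labelled ERβ5 is ERβ knockout cells made to express ERβ5, a splice variant of the receptor with another carboxy-terminal end. The group labelled ERβ1 is ERβ knockout cells made to express ERβ1, the full-length receptor. The group labelled ERβ-KO is the knockout itself, which both isoform groups also carry. The group labelled control is U87 cells without the knockout. The sources used here do not give whether a line is a single clone or whether replicate libraries stem from separate cultures, so p-values measure the spread between these libraries, which may be technical.

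Astrocytes and neural stem cells build their intermediate filaments from vimentin, nestin and glial fibrillary acidic protein, and SOX2 is a transcription factor that keeps neural stem cells undifferentiated. Glioblastomas of the mesenchymal kind are known for CD44, the receptor of the matrix sugar hyaluronan, and for secreted or surface proteins of wound-like tissue such as tenascin-C, galectin-1, matrix metalloproteinase 2 and the receptor kinase AXL. U87 MG is commonly described as a line of that mesenchymal kind.

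Each library held 26760897 to 48076414 reads in genes. ESR2 had 7 and 10 reads in the libraries labelled ERβ5, 6 and 18 in those labelled ERβ1, 23 and 21 in those labelled ERβ-KO and 25 and 20 in those labelled control. ESR2 reads were thus not lower in the libraries labelled ERβ-KO than in those labelled control and not higher in the isoform libraries, so groups are named by their labels throughout, and every direction below rests on those labels.

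The levels of the 9 genes were set against the label first, in CPM (counts per 1e6 gene reads, scaled between libraries) and, where genes are compared with each other, in CPM per kb of transcript. LGALS1 (galectin-1, a secreted sugar-binding protein) had the highest mean over the 8 libraries, at 157 CPM per kb, which is rank 444 of 19727 genes with a known length and 87.8% of the level summed over the 9 genes. CD44 followed at 10.0, SOX2 at 7.86 and VIM at 2.80 CPM per kb. NES stood at 0.491, MMP2 at 0.400, AXL at 0.150, TNC at 0.122 and GFAP at 0.0154 CPM per kb. The library values of LGALS1 overlapped with those of none of the other 8 genes, and those of VIM stayed above those of NES. CD44 and SOX2, SOX2 and VIM, VIM and MMP2, and NES and MMP2 overlapped across libraries. So did MMP2 and AXL, MMP2 and TNC, AXL and TNC, and TNC and GFAP. Within every single library, however, SOX2 stood above VIM, VIM above MMP2, MMP2 above TNC and TNC above GFAP. The order of CD44 and SOX2, NES and MMP2, MMP2 and AXL, and AXL and TNC changed between libraries. The order of these last pairs is therefore not separated from the spread. VIM, a gene that mesenchymal and glial cells express strongly, ranked 9350, and GFAP ranked 14390.

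GFAP, the defining filament gene of astrocytes, had 4 and 3 reads in the libraries labelled ERβ5, 2 and 4 in those labelled ERβ1, 2 and 2 in those labelled ERβ-KO and 2 and 5 in those labelled control. That is 24 of 288494574 gene reads, with a Poisson 95% interval of 15.4 to 35.7 reads that covers counting error only. GFAP did not pass the filter on low counts and has no main test, so the other 8 genes carry the comparisons. Without that filter its edgeR adjusted p ran from 0.640 to 1.0 over the 6 comparisons. GFAP shares 2232 exon bases with the antisense gene CCDC103, which was counted as a gene of its own. The strand setting of the counting is not given in the sources used here. How reads in the shared bases were assigned cannot be checked, so the GFAP counts may be too high or too low.

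The wider marker lists were read beside the 9 genes. Of 12 astrocyte markers, GLUL, ALDOC and NDRG2 reached 10 CPM in all libraries, 8 stayed under 1 CPM in all, and AQP4 and S100B had no read. Of 18 neural stem and proneural glioma genes, 4 reached 10 CPM in all libraries, SOX2 among them, and 10 stayed under 1 CPM, with OLIG1, OLIG2, SOX11 and BCAN among those at 0 reads. Of 25 mesenchymal glioma genes, 10 reached 10 CPM in all libraries, CD44 and LGALS1 among them, 6 stayed under 1 CPM, and POSTN had no read. Of 20 luminal epithelial markers, 19 reached 10 CPM in all libraries, with XBP1 at 2020, KRT8 at 1900 and KRT18 at 1750 CPM per kb. Of the lists for other cells of the brain, 2 of 7 oligodendrocyte, 1 of 8 neuronal, 0 of 7 macrophage, 0 of 6 endothelial and 1 of 7 pericyte markers reached 10 CPM in all libraries. In the luminal epithelial list, GATA3 stood at 483, CDH1 at 438, EPCAM at 372 and ESR1 at 19.8 CPM per kb. KRT7 was lowest of that list at 3.96 CPM per kb, and VIM stood at 2.80. EPCAM, ESR1 and KRT7 were named after their values were seen. Most of the listed astrocyte, neural stem and proneural genes thus stayed under 1 CPM, and VIM lay below every listed luminal epithelial marker in CPM per kb. The libraries carried a luminal epithelial profile. Why this differs from the label was not tested. The names glial and mesenchymal below stand for the gene lists, not for the cells.

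**Figure D1:**
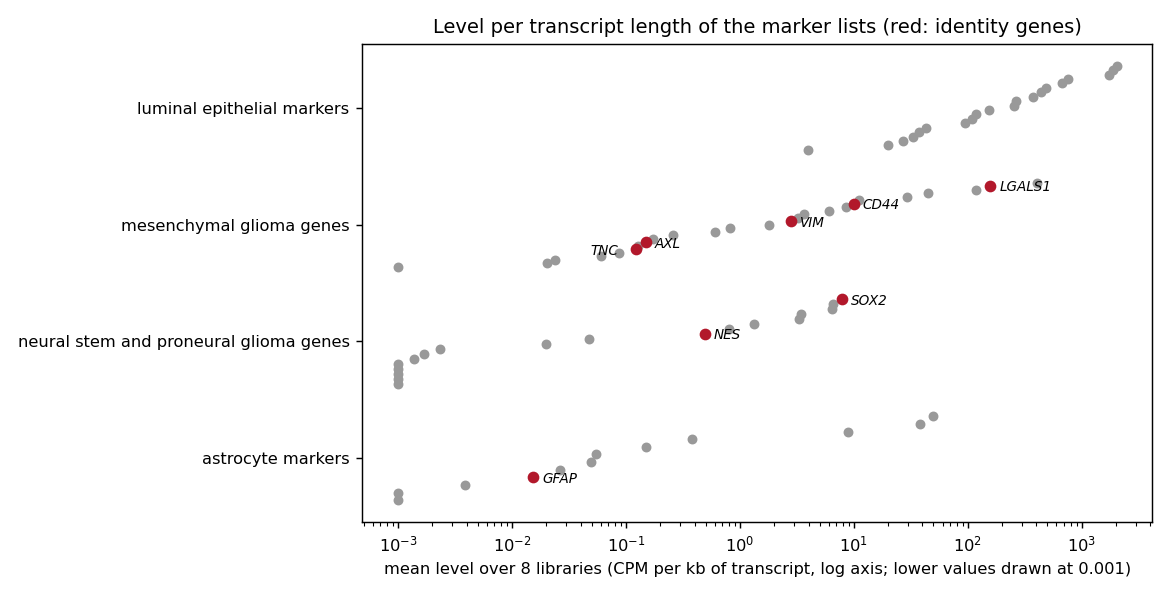
Mean level over the 8 libraries of each gene of 4 marker lists, in CPM per kb of transcript on a log axis, with values under 0.001 drawn at 0.001; red points are identity genes that belong to a list. LGALS1 at 157 CPM per kb is the highest of the red points, GFAP at 0.0154 is the lowest, and most luminal epithelial markers lie to the right of CD44.

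Against the libraries labelled ERβ-KO, which ask what putting an isoform back does, VIM and MMP2 were lower in both isoform groups, and TNC and SOX2 were lower and LGALS1 higher in the libraries labelled ERβ1. In the libraries labelled ERβ1, 4 of the 8 tested genes fell and 1 rose, where 24.9% of all 13915 genes tested changed, 12.5% falling and 12.4% rising (edgeR's quasi-likelihood test, Benjamini-Hochberg adjusted p under 0.05). The median log2 change of the 8 genes was -0.99, beside 0 over all genes. In the libraries labelled ERβ5, 2 of the 8 fell and none rose, where 28.2% of all genes changed (13.5% fell and 14.7% rose), and the median was -0.41, beside 0.008 over all genes. These 2 comparisons share the knockout libraries, so a high or low knockout value enters both.

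Between the libraries labelled ERβ-KO and control, LGALS1 was the only gene of the 8 called, and it was lower, where 17.5% of all genes changed (8.52% fell and 8.98% rose). The median of the 8 genes was -0.04, beside 0.009 over all genes. Between the isoforms, the question of the series, LGALS1 was again the only gene called, lower in the libraries labelled ERβ5 than in those labelled ERβ1, where 4.66% of all genes changed (1.18% fell and 3.49% rose). The median there was 0.51, beside -0.005 over all genes.

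Against the libraries labelled control, the libraries labelled ERβ1 had lower VIM, TNC and MMP2, which is 3 of 8, where 4.06% of all genes changed (2.70% fell and 1.36% rose). The libraries labelled ERβ5 had lower VIM, MMP2 and LGALS1, also 3 of 8, where 13.2% of all genes changed (6.31% fell and 6.85% rose). The medians were -0.74 and -0.29, beside 0.01 and 0.007 over all genes, and these comparisons share the control libraries.

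**Figure D2:**
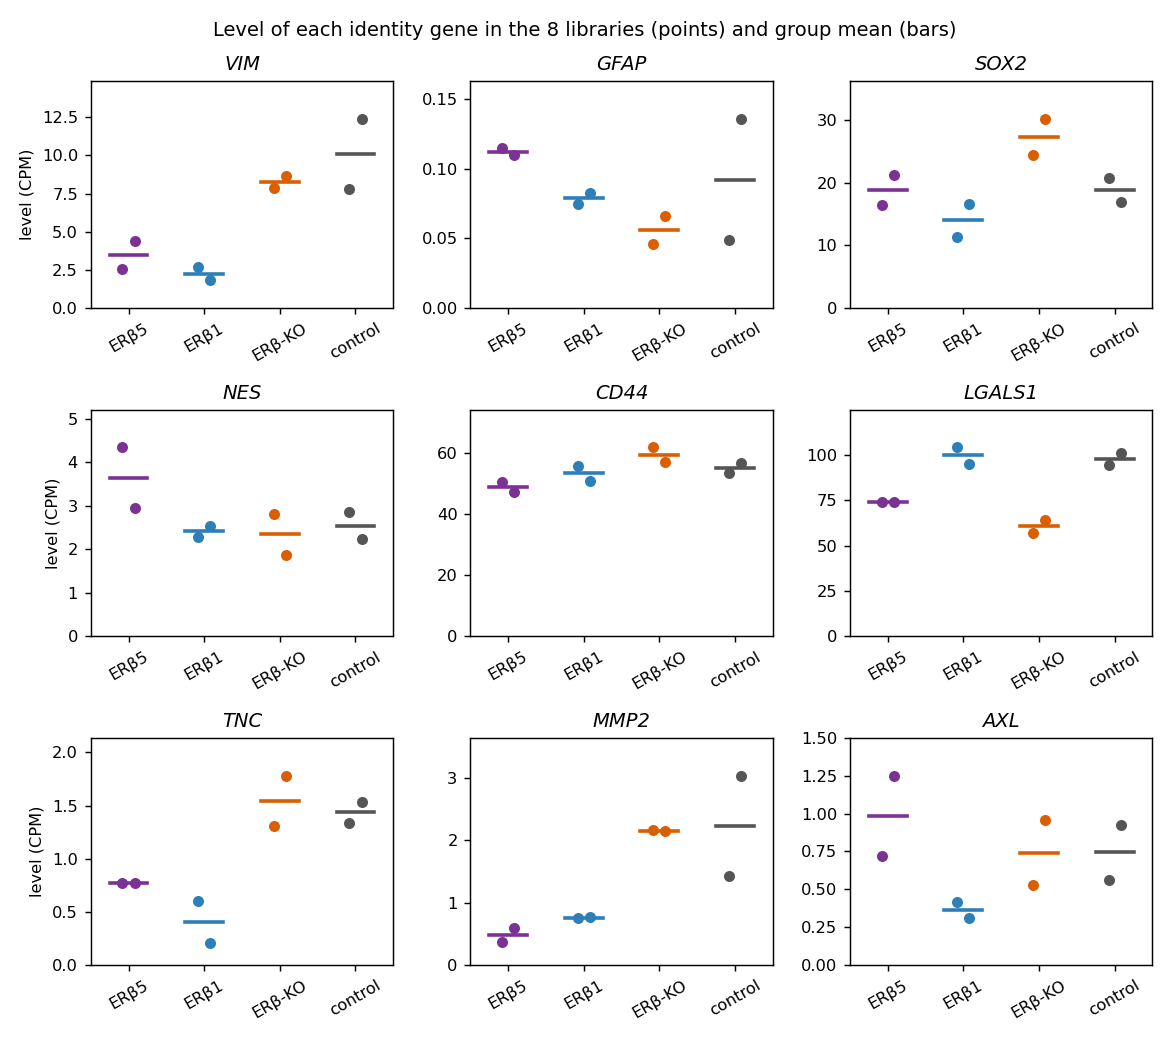
Level in CPM of each of the 9 identity genes in the 8 libraries, with points for libraries, bars for the mean of the 2 libraries of a group, a linear axis from 0 for each gene, and the groups ordered ERβ5, ERβ1, ERβ-KO and control. VIM, MMP2 and TNC lie lower in both isoform groups than in ERβ-KO and control, LGALS1 is lowest in ERβ-KO, and GFAP stays under 0.15 CPM.

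Vimentin, the intermediate filament protein of mesenchymal cells and astrocytes, is encoded by VIM at 17270240 to 17279592 on the plus strand of chromosome 10 (GRCh37, the build of hg19). VIM stood at 2.58 and 4.37 CPM in the libraries labelled ERβ5, 2.70 and 1.82 CPM in those labelled ERβ1, 7.85 and 8.66 CPM in those labelled ERβ-KO and 7.81 and 12.4 CPM in those labelled control. Every isoform library lay below every library labelled ERβ-KO or control, while the isoform groups overlapped with each other, as did ERβ-KO and control. In the libraries labelled ERβ1, VIM was 3.74-fold lower than in those labelled ERβ-KO (log2 change -1.90 ± 0.30 SE, edgeR adjusted p = 0.00125). In the libraries labelled ERβ5 it was 2.40-fold lower (log2 change -1.26 ± 0.28, edgeR adjusted p = 0.0102). The second of these calls was lost without the replicate 2 library labelled ERβ-KO, at an adjusted p of 0.0508. Against the libraries labelled control, the falls were 4.58-fold in ERβ1 and 2.94-fold in ERβ5 (edgeR adjusted p = 0.00185 and 0.00437). The difference between the isoforms was 0.64 ± 0.31 on the log2 scale and did not pass the test (95% interval -0.05 to 1.33). VIM shares 641 bases of its transcript with the antisense RNA VIM-AS1, and the counting cannot be checked for strand. Bulk RNA cannot tell fewer cells with a gene from less RNA of it in each cell.

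Some luminal epithelial genes were higher against ERβ-KO where these genes were lower. The summed level of that list was 17900 to 19400 CPM in the libraries labelled ERβ5, 19000 to 20200 in those labelled ERβ1, 14200 to 14800 in those labelled ERβ-KO and 16500 to 17300 in those labelled control. The sum is carried by a few abundant genes such as KRT8, at 4140 ± 396 CPM in ERβ5, 4170 ± 398 in ERβ1, 2080 ± 39.7 in ERβ-KO and 3140 ± 220 in control (SD, n = 2 each). All 20 of its genes were tested, and 7 rose, 1 fell and 12 were not called against ERβ-KO in each isoform group, where 14.7% of all genes rose and 13.5% fell in ERβ5 and 12.4% rose and 12.5% fell in ERβ1. The list's median log2 change was 0.24 in ERβ5 and 0.12 in ERβ1. Against control, where VIM and MMP2 also fell, 4 of the 20 rose and 3 fell in ERβ5 (median 0.06), and 1 rose and 1 fell in ERβ1 (median 0). The part of this list in the changes of VIM, TNC, MMP2 and SOX2 was not tested. Of the 12 astrocyte markers, 5 were tested. NDRG2 rose against ERβ-KO in both isoform groups, and GJA1, under 1 CPM in every library, fell in ERβ1. NDRG2 had 28.0 ± 6.19 CPM in ERβ5, 31.3 ± 1.93 in ERβ1, 18.8 ± 1.04 in ERβ-KO and 27.8 ± 2.28 in control. It was the only astrocyte marker called between ERβ-KO and control, where it was lower and 8.52% of all genes fell. The libraries labelled ERβ-KO differed from all others in how reads followed GC content, as given below with LGALS1. The changes of the luminal epithelial list and of NDRG2 with that trend removed are not reported here.

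Nestin, the filament protein of neural stem cells, is encoded by NES on chromosome 1, minus strand, at 156638555 to 156647199. NES stood at 4.34 and 2.94 CPM in the libraries labelled ERβ5, 2.29 and 2.54 CPM in those labelled ERβ1, 2.82 and 1.88 CPM in those labelled ERβ-KO and 2.85 and 2.24 CPM in those labelled control. The ERβ5 values lay highest and did not overlap with those of any other group, and the other 3 groups overlapped. No comparison of NES passed the test. The difference of ERβ5 from ERβ-KO was 0.62 ± 0.26 on the log2 scale (95% interval 0.06 to 1.19, edgeR adjusted p = 0.0904), and that of ERβ1 from ERβ-KO was 0.03 ± 0.26 (95% interval -0.55 to 0.61).

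Of 10 intermediate filament genes of neural and muscle cells, 4 were tested. In the libraries labelled ERβ1, PRPH (peripherin, of peripheral neurons), SYNM (synemin, which binds vimentin and desmin filaments) and VIM fell against ERβ-KO. In those labelled ERβ5, PRPH and VIM fell. Over all genes, 12.5% fell in ERβ1 and 13.5% in ERβ5 against ERβ-KO. VIM and NES belong to the identity genes, so PRPH and SYNM were the only other filament genes tested. Of these 2, both fell in ERβ1 and 1 fell in ERβ5, which is too few to show a fall of the list. PRPH had 6.60 ± 0.453 CPM in ERβ5, 8.02 ± 0.291 CPM in ERβ1, 11.8 ± 3.05 CPM in ERβ-KO and 15.7 ± 1.02 CPM in control (SD, n = 2 each). PRPH values, like those of VIM, were lower in both isoform groups than in either other group, with no overlap. The PRPH change in ERβ1 against ERβ-KO was -0.54 ± 0.18, but -0.26 without the replicate 2 library labelled ERβ-KO and -0.86 with GC and length trends removed.

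SOX2, the stem-cell transcription factor, is a gene of 1 exon at 181429713 to 181432224 on the plus strand of chromosome 3, inside the long non-coding gene SOX2-OT, with which it shares 0 exon bases. SOX2 stood at 16.5 and 21.3 CPM in the libraries labelled ERβ5, 11.4 and 16.6 CPM in those labelled ERβ1, 24.4 and 30.2 CPM in those labelled ERβ-KO and 20.7 and 16.9 CPM in those labelled control. Both libraries labelled ERβ-KO lay above all others, and the ERβ5 values overlapped with those of ERβ1 and of control. The fall in ERβ1 against ERβ-KO was 1.94-fold (log2 change -0.95 ± 0.20, edgeR adjusted p = 0.00567). That call was lost without the replicate 1 library labelled ERβ1, which held the lowest value, at an adjusted p of 0.0604. The change in ERβ5 against ERβ-KO was -0.53 ± 0.20 (edgeR adjusted p = 0.0601) and that of ERβ-KO against control 0.54 ± 0.19 (edgeR adjusted p = 0.0756), and neither was called. Both passed in fits of the 2 groups alone and with DESeq2. Of 19 SOX family genes, 7 were tested. Against ERβ-KO, SOX2 was the only gene of these called in ERβ1, and none was called in ERβ5. Over all genes, 24.9% changed in ERβ1 and 28.2% in ERβ5 in these comparisons. SOX4 rose in ERβ1 against control by 0.65 ± 0.14 on the log2 scale (edgeR adjusted p = 0.0220), and SOX9, a partner of SOX2 in neural stem cells, held 14.4 ± 0.974 CPM in ERβ5, 13.2 ± 1.26 in ERβ1, 13.2 ± 2.20 in ERβ-KO and 13.3 ± 0.154 in control (SD, n = 2 each).

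CD44, the hyaluronan receptor, lies at 35160429 to 35253949 on the plus strand of chromosome 11. CD44 stood at 50.5 and 47.3 CPM in the libraries labelled ERβ5, 55.9 and 51.0 CPM in those labelled ERβ1, 61.9 and 57.2 CPM in those labelled ERβ-KO and 53.5 and 56.9 CPM in those labelled control. ERβ5 values were lowest and ERβ-KO values highest, with no overlap between any of the groups except ERβ1 and control. No comparison of CD44 passed the test, and its intervals were narrow. The widest difference was that of ERβ5 from ERβ-KO, -0.28 ± 0.10 on the log2 scale (95% interval -0.51 to -0.06, edgeR adjusted p = 0.0601), and that of ERβ1 from ERβ-KO was -0.16 ± 0.10 (95% interval -0.38 to 0.07). Isoforms of CD44 are made by splicing and are added together in these counts.

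Several genes that act with CD44 passed the test, while CD44 did not. Of 18 genes for CD44 ligands, hyaluronan enzymes, linkers and splicing factors, 16 were tested; 3 rose and 4 fell in ERβ1 against ERβ-KO, and 4 rose and 4 fell in ERβ5 against ERβ-KO, where 24.9% and 28.2% of all genes changed. The splicing factor ESRP1, which directs CD44 towards its variant exons, had 229 ± 16.2 CPM in ERβ5, 276 ± 19.5 CPM in ERβ1, 390 ± 39.4 CPM in ERβ-KO and 345 ± 14.4 CPM in control (SD, n = 2 each). It fell against ERβ-KO in both isoform groups, with log2 changes of -0.77 ± 0.11 in ERβ5 and -0.50 ± 0.11 in ERβ1, while its relative ESRP2 rose by 0.42 ± 0.11 in ERβ5 and 0.57 ± 0.11 in ERβ1. RDX (radixin), a linker of CD44 to actin, fell as well, with log2 changes of -0.67 ± 0.12 in ERβ5 and -0.50 ± 0.12 in ERβ1. The linker MSN (moesin), the hyaluronan receptor HMMR and the hyaluronidase HYAL2 were named after their values were seen. MSN, on only 5 to 55 reads per library, had log2 changes of -1.34 ± 0.37 in ERβ5 and -2.32 ± 0.40 in ERβ1 against ERβ-KO. HMMR had changes of -2.05 ± 0.25 in ERβ5 and -3.01 ± 0.26 in ERβ1. HYAL2 was higher by 0.79 ± 0.11 in ERβ5 and 0.55 ± 0.11 in ERβ1 (edgeR adjusted p from 5.19e-05 to 0.0213 over all these changes). With each library's trends of GC content and transcript length removed, RDX was at -0.27 in ERβ5 and -0.19 in ERβ1, ESRP2 at 0.21 and 0.37, ESRP1 at -0.55 and -0.33 and HYAL2 at 0.48 and 0.28, and the calls of RDX in ERβ1 and of ESRP2 in ERβ5 were lost. Without the replicate 1 library labelled ERβ5, the MSN change there was -0.86.

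AXL, a receptor tyrosine kinase of the TAM family, lies at 41725128 to 41767671 on the plus strand of chromosome 19. AXL stood at 0.718 and 1.25 CPM in the libraries labelled ERβ5, 0.413 and 0.310 CPM in those labelled ERβ1, 0.528 and 0.955 CPM in those labelled ERβ-KO and 0.559 and 0.928 CPM in those labelled control. These values rest on 11 to 34 reads per library. ERβ1 values were lowest without overlap, and the other 3 groups overlapped. No comparison passed the test, and the largest difference, between ERβ5 and ERβ1, was 1.45 ± 0.46 on the log2 scale (95% interval 0.45 to 2.46, edgeR adjusted p = 0.109). Of 5 TAM receptors and ligands, 4 were tested, and GAS6, the ligand of AXL, was the only gene called. Over all genes, 24.9% changed in ERβ1 and 28.2% in ERβ5 against ERβ-KO. GAS6 had 29.3 ± 0.424 CPM in ERβ5, 27.4 ± 2.19 in ERβ1, 19.6 ± 1.73 in ERβ-KO and 21.7 ± 1.73 in control (SD, n = 2 each), and it rose against ERβ-KO in both isoform groups (edgeR adjusted p = 0.00784 in ERβ5 and 0.0167 in ERβ1). With GC and length trends removed both calls were lost, at log2 changes of 0.16 in ERβ5 and 0.15 in ERβ1, against 0.58 and 0.48. TYRO3, another TAM receptor, stood at 10.1 ± 1.62 CPM in ERβ5, 9.71 ± 0.294 in ERβ1, 10.7 ± 3.39 in ERβ-KO and 11.2 ± 0.623 in control and was not called.

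**Figure D3:**
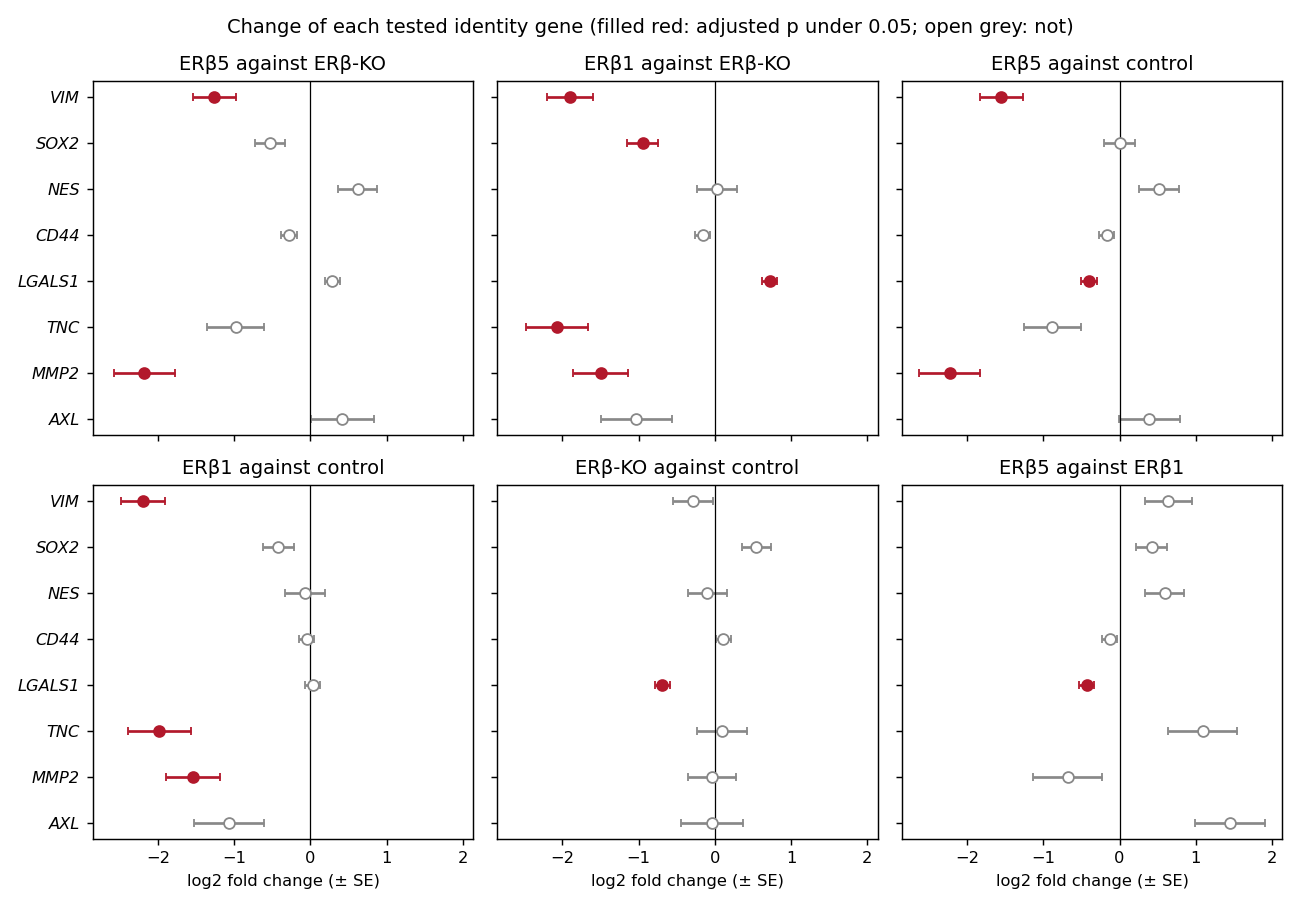
Log2 fold change with its standard error of the 8 tested identity genes in the 6 comparisons, with filled red points for an edgeR adjusted p under 0.05 and open grey points otherwise; negative values are lower in the group named first. VIM and MMP2 are red and negative in all 4 panels of an isoform group against ERβ-KO or control, and CD44, NES and AXL are grey in every panel.

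Tenascin-C, a matrix glycoprotein of wounds and gliomas, is encoded by TNC on chromosome 9, minus strand, at 117781854 to 117880486. TNC stood at 0.775 and 0.771 CPM in the libraries labelled ERβ5, 0.601 and 0.207 CPM in those labelled ERβ1, 1.31 and 1.78 CPM in those labelled ERβ-KO and 1.34 and 1.53 CPM in those labelled control. The isoform libraries, on 10 to 27 reads each, lay below all others, and the ERβ1 values below those of ERβ5. TNC was 4.20-fold lower in ERβ1 than in ERβ-KO (log2 change -2.07 ± 0.41, edgeR adjusted p = 0.00430) and 3.94-fold lower than in control (log2 change -1.98 ± 0.41, edgeR adjusted p = 0.0196). Without the replicate 2 library labelled ERβ1 these changes were -1.34 and -1.25, and the call against control was lost; it was also lost without either library labelled control. Without the replicate 1 library labelled ERβ1 they were -2.87 and -2.77, both called. In ERβ5 the change against ERβ-KO was -0.98 ± 0.37 (edgeR adjusted p = 0.0651), which was not called, and the difference of ERβ5 from ERβ1 was 1.09 ± 0.45 (95% interval 0.11 to 2.08, edgeR adjusted p = 0.221). TNC shares 129 exon bases with the antisense gene DELEC1.

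Of 13 tenascins and tenascin-C receptors, 9 were tested. In ERβ1 against ERβ-KO, TNC and ITGB3 fell and none rose; in ERβ5 against ERβ-KO, ITGB3 fell and SDC4 and ANXA2 rose. These shares, 2 and 3 of 9, are near those of all genes, 24.9% and 28.2%. SDC4 (syndecan-4, a surface proteoglycan) had 258 ± 5.93 CPM in ERβ5, 232 ± 9.88 in ERβ1, 205 ± 6.87 in ERβ-KO and 200 ± 7.70 in control. ANXA2 (annexin A2) had 166 ± 12.9 CPM in ERβ5, 146 ± 8.89 in ERβ1, 127 ± 1.92 in ERβ-KO and 117 ± 10.6 in control (SD, n = 2 each). ITGB3 (integrin beta 3), named after its values were seen, was under 1 CPM in every library.

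Matrix metalloproteinase 2, which cleaves basement-membrane collagen, is encoded by MMP2 at 55423612 to 55540603 on the plus strand of chromosome 16. MMP2 stood at 0.373 and 0.588 CPM in the libraries labelled ERβ5, 0.751 and 0.764 CPM in those labelled ERβ1, 2.16 and 2.14 CPM in those labelled ERβ-KO and 1.43 and 3.03 CPM in those labelled control. The isoform libraries all lay below the others, on 13 to 37 reads each against 59 to 111, and the ERβ5 values lay below those of ERβ1. MMP2 was 4.54-fold lower in ERβ5 than in ERβ-KO (log2 change -2.18 ± 0.40, edgeR adjusted p = 0.00414) and 2.82-fold lower in ERβ1 (log2 change -1.50 ± 0.36, edgeR adjusted p = 0.0121). Against control it was 4.68-fold lower in ERβ5 and 2.91-fold lower in ERβ1 (edgeR adjusted p = 0.00373 and 0.0349). Both ERβ1 calls were lost without either library labelled ERβ1; the first was also lost without the replicate 1 library labelled ERβ-KO, and the second without the replicate 2 library labelled control, when the change was -0.92. Without that control library the change of ERβ5 against control was -1.60, still called. The difference of ERβ5 from ERβ1 was -0.68 ± 0.45 and was not called (95% interval -1.67 to 0.30).

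Of 11 genes of MMP2 activation and inhibition, 10 were tested. TIMP1, an inhibitor of metalloproteinases, had 344 ± 35.5 CPM in ERβ5, 399 ± 43.9 in ERβ1, 222 ± 5.42 in ERβ-KO and 280 ± 52.0 in control (SD, n = 2 each). TIMP1 rose in both isoform groups against ERβ-KO, by 0.63 ± 0.14 on the log2 scale in ERβ5 and 0.84 ± 0.14 in ERβ1, opposite to MMP2. MMP15, a membrane-bound metalloproteinase, rose in both (0.52 ± 0.11 in ERβ5 and 0.65 ± 0.11 in ERβ1), TIMP2 rose in ERβ5 (0.42 ± 0.13) and MMP16 in ERβ1 (0.91 ± 0.20). With GC and length trends removed, the TIMP1 changes were 0.35 in ERβ5 and 0.57 in ERβ1, still called, and the calls of MMP15 (0.07 in ERβ5 and 0.31 in ERβ1) and of TIMP2 (0.32 in ERβ5) were lost. MMP2 was the only gene of the list that fell in either comparison; 24.9% of all genes changed in ERβ1 and 28.2% in ERβ5. MMP14, the main activator of MMP2, is named although it was not called: its changes were -0.78 ± 0.37 in ERβ5 and -0.99 ± 0.37 in ERβ1.

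Galectin-1 is encoded by LGALS1 at 38071643 to 38075809 on the plus strand of chromosome 22. Unlike VIM, TNC and MMP2, it was not lowest in the isoform groups. LGALS1 stood at 74.0 and 73.9 CPM in the libraries labelled ERβ5, 104 and 95.1 CPM in those labelled ERβ1, 57.0 and 64.0 CPM in those labelled ERβ-KO and 94.3 and 101 CPM in those labelled control. The libraries labelled ERβ-KO were lowest, those labelled ERβ5 next, and those labelled ERβ1 and control overlapped above both. LGALS1 was 1.61-fold lower in ERβ-KO than in control (log2 change -0.69 ± 0.10, edgeR adjusted p = 0.00240) and 1.65-fold higher in ERβ1 than in ERβ-KO (0.72 ± 0.10, edgeR adjusted p = 0.000705). The rise in ERβ5 against ERβ-KO was 0.29 ± 0.10 and was not called (95% interval 0.07 to 0.52, edgeR adjusted p = 0.0534). ERβ5 was 1.34-fold below ERβ1 (log2 change -0.43 ± 0.10, edgeR adjusted p = 0.0354) and 1.32-fold below control (-0.40 ± 0.10, edgeR adjusted p = 0.0246). The ERβ5 against ERβ1 call was lost in the fit of these 2 groups alone (adjusted p = 0.108) and without any 1 of 5 libraries: both labelled control, both labelled ERβ1 and ERβ5 replicate 2. The ERβ5 against control call was lost without either library labelled control or ERβ5 replicate 2. The difference of ERβ1 from control was 0.03 ± 0.10 (95% interval -0.20 to 0.25).

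The libraries also differed in how reads followed transcript composition, which bears on LGALS1, whose transcript is 58.3% G and C. Across genes, the correlation of a library's deviation from the mean level with GC content was 0.121 and 0.339 in ERβ5, 0.356 and -0.137 in ERβ1, -0.566 and -0.464 in ERβ-KO and 0.128 and 0.197 in control. With the trends of GC content and length removed, the LGALS1 changes were -0.34 for ERβ-KO against control and 0.39 for ERβ1 against ERβ-KO, each still called, and -0.03 for ERβ5 against ERβ-KO. The same removal left the VIM, MMP2, TNC and SOX2 calls in place.

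Of 10 galectin genes, 5 were tested. LGALS3BP, which encodes a galectin-binding glycoprotein, had 695 ± 275 CPM in ERβ5, 182 ± 0.443 in ERβ1, 225 ± 18.8 in ERβ-KO and 96.4 ± 11.6 in control (SD, n = 2 each). It rose in ERβ5 against ERβ-KO, ERβ1 and control and in ERβ-KO against control, where 14.7%, 3.49%, 6.85% and 8.98% of all genes rose. LGALS9 (galectin-9) was called in those same 4 comparisons, at 2.49 ± 1.78 CPM in ERβ5, 0.192 ± 0.154 in ERβ1, 0.466 ± 0.0542 in ERβ-KO and 0.0273 ± 0.0386 in control. Its log2 change in ERβ5 against ERβ-KO was 1.37 without the replicate 2 library labelled ERβ5 and 2.98 without replicate 1. LGALS3 (galectin-3) was not called, at 186 and 226 CPM in ERβ5, 184 and 195 in ERβ1, 151 and 180 in ERβ-KO and 179 and 201 in control.

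**Figure D4:**
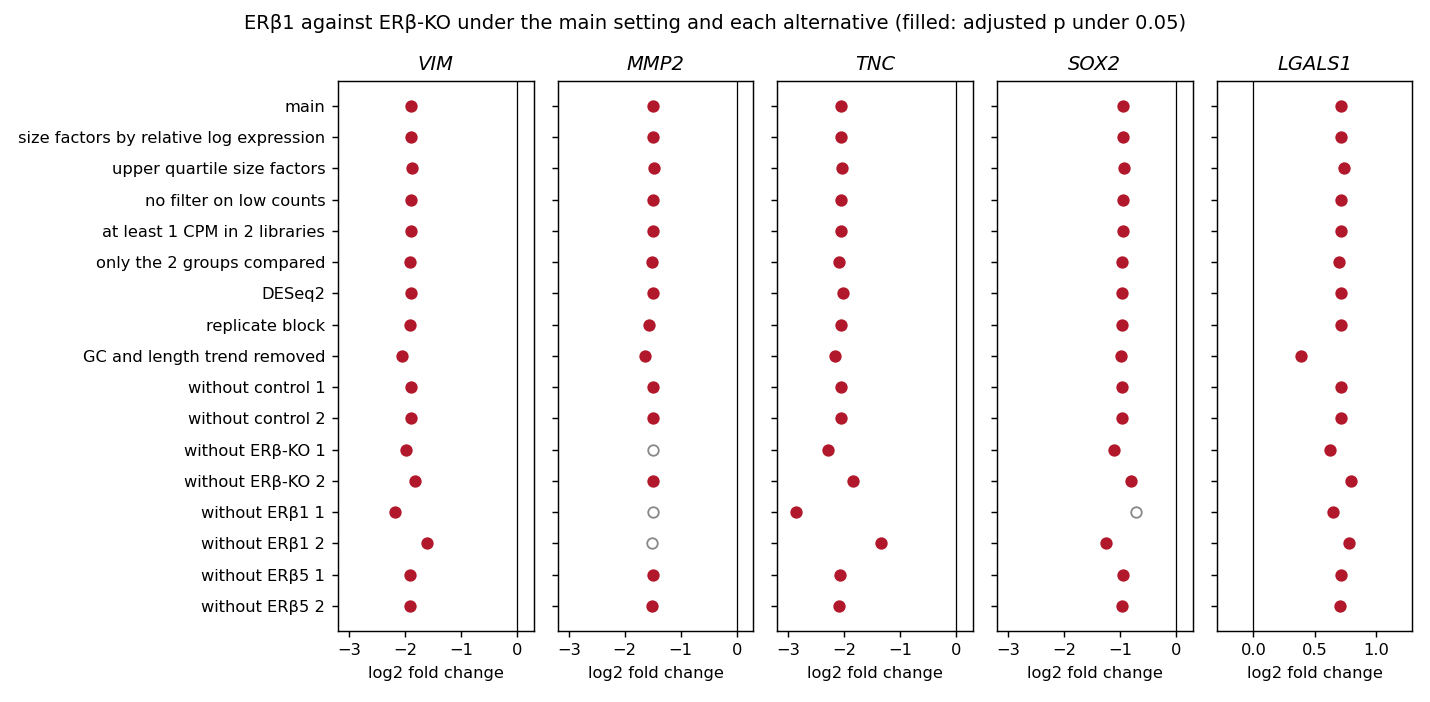
Log2 fold change of VIM, MMP2, TNC, SOX2 and LGALS1 in ERβ1 against ERβ-KO under the main setting and 16 alternatives, 1 per line, with filled points for an adjusted p under 0.05 and open points otherwise. VIM, TNC and LGALS1 stay filled on every line, MMP2 is open on 3 lines and SOX2 on 1 line, each of which leaves out a library.

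The promoters of 3 genes that fell together in the libraries labelled ERβ1 are shown because an estrogen receptor can act on a gene by binding near its start. The sequences are RefSeq's (GRCh38.p14), the 250 bases before the start of each gene, read 5′ to 3′ along the gene. Capitals mark matches on either strand to a GC box (GGGCGG) or to the GGTCA motif, the core of the estrogen response element.
VIM chr10:17227991-17228240, plus strand: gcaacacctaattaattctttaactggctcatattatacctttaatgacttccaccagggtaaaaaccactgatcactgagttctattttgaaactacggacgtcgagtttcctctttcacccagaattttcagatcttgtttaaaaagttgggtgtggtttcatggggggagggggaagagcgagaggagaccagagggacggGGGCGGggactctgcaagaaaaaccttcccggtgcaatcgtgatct
TNC chr9:115118158-115118407, minus strand: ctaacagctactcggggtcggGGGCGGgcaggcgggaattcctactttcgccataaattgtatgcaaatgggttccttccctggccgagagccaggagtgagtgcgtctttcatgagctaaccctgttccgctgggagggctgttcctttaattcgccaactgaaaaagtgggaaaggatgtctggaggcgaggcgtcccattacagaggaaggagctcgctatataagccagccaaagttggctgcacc
SOX2 chr3:181711675-181711924, plus strand: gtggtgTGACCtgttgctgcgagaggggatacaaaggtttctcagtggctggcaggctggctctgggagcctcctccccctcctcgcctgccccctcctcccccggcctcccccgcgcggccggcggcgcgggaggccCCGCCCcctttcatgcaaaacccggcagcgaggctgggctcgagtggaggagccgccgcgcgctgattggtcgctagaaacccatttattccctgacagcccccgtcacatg

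VIM and TNC each held 1 GC box and SOX2 held 1 GC box and 1 GGTCA match, where 42.6% of 35116 promoter windows of this length hold a GC box and 32.6% hold GGTCA. None of the 3 held the complete estrogen response element (GGTCA, any 3 bases, then TGACC), which 0.0399% of windows hold. None held the letters of an AP-1 site (TGANTCA, 6.57% of windows) or the exact letters TATAAA of a TATA box (10.7%). Only these letters were searched for. A variant TATA box, such as the tatataag near the end of the TNC window, was therefore not counted. NES, CD44 and AXL also had an entry, with 2 GGTCA matches in NES, 1 in CD44 and 1 over the 2 windows of AXL, and no complete element. Letters that match a motif do not show that a factor binds there, and their absence from this window says nothing of sites elsewhere. GFAP, LGALS1 and MMP2 had no entry.

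More of the mesenchymal glioma genes outside the 9 fell than rose in the isoform groups. That list was written with earlier results of these data known, so its counts are a description and no independent check of the 9. Of the 16 tested genes of that list that are not among the 9, 5 fell and 1 rose in ERβ1 against ERβ-KO, with a median log2 change of -0.65, and 6 fell and 1 rose in ERβ5 against ERβ-KO, with a median of -0.64. Over all genes 12.5% fell and 12.4% rose in ERβ1 and 13.5% fell and 14.7% rose in ERβ5, with medians of 0 and 0.008. The gene that rose in both was TIMP1. Against control, 3 of the 16 fell and BHLHE40 rose in ERβ1, where 2.70% of all genes fell and 1.36% rose. In ERβ5 against control, 4 fell and FOSL2 and RELB, named after their values were seen, rose, where 6.31% of all genes fell and 6.85% rose. FN1 (fibronectin, a matrix protein that mesenchymal cells secrete) had 76.3 ± 1.15 CPM in ERβ5, 58.1 ± 7.58 in ERβ1, 153 ± 31.9 in ERβ-KO and 88.2 ± 1.98 in control (SD, n = 2 each). FN1 fell against ERβ-KO in ERβ5 (-1.0 ± 0.14, edgeR adjusted p = 0.00105) and ERβ1 (-1.40 ± 0.14, edgeR adjusted p = 5.93e-05), and it was higher in ERβ-KO than in control (0.79 ± 0.14, edgeR adjusted p = 0.00476). VIM, TNC and MMP2 were not called between ERβ-KO and control.

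THBS1 (thrombospondin-1, a matrix protein that activates TGF-beta) had 193 ± 2.37 CPM in ERβ5, 202 ± 16.8 in ERβ1, 239 ± 23.3 in ERβ-KO and 276 ± 6.14 in control. It fell in ERβ5 against ERβ-KO (-0.31 ± 0.10, edgeR adjusted p = 0.0464), a call kept in only 6 of 16 alternatives, and in both isoform groups against control. TGFBI and LOX (lysyl oxidase, which crosslinks collagen) were named after their values were seen and fell against ERβ-KO in both isoform groups. The log2 changes of TGFBI were -2.22 ± 0.27 in ERβ5 and -1.0 ± 0.23 in ERβ1, and those of LOX were -2.31 ± 0.56 in ERβ5 and -1.87 ± 0.51 in ERβ1. LOX had 3 to 46 reads per library, and leaving out replicate 1 or 2 of the isoform group gave -1.60 and -3.39 in ERβ5 and -1.37 and -3.41 in ERβ1. TGFBI, a TGF-beta induced matrix protein, also differed between the isoforms, at 0.729 ± 0.147 CPM in ERβ5 and 1.72 ± 0.144 CPM in ERβ1 (log2 change -1.23 ± 0.29, edgeR adjusted p = 0.0308). Of 10 EMT transcription factors and cadherins, 8 stayed under 1 CPM in all libraries and 3 were tested. CDH1, the epithelial cadherin, was the only gene of the 3 called against ERβ-KO, and it rose in ERβ1 (0.42 ± 0.13, edgeR adjusted p = 0.0311). Over all genes, 12.4% rose in that comparison. ZEB1 and ZEB2, repressors of CDH1, were named after their values were seen; ZEB1 did not pass the filter, and ZEB2 was tested and not called (-2.29 ± 0.79 in ERβ1 against ERβ-KO, edgeR adjusted p = 0.0544, called in 5 of 15 alternatives). ZEB1 had 7 reads in ERβ5, 0 in ERβ1, 16 in ERβ-KO and 9 in control, and ZEB2 had 10 reads in ERβ5, 5 in ERβ1, 25 in ERβ-KO and 37 in control, summed over the 2 libraries of a group.

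**Figure D5:**
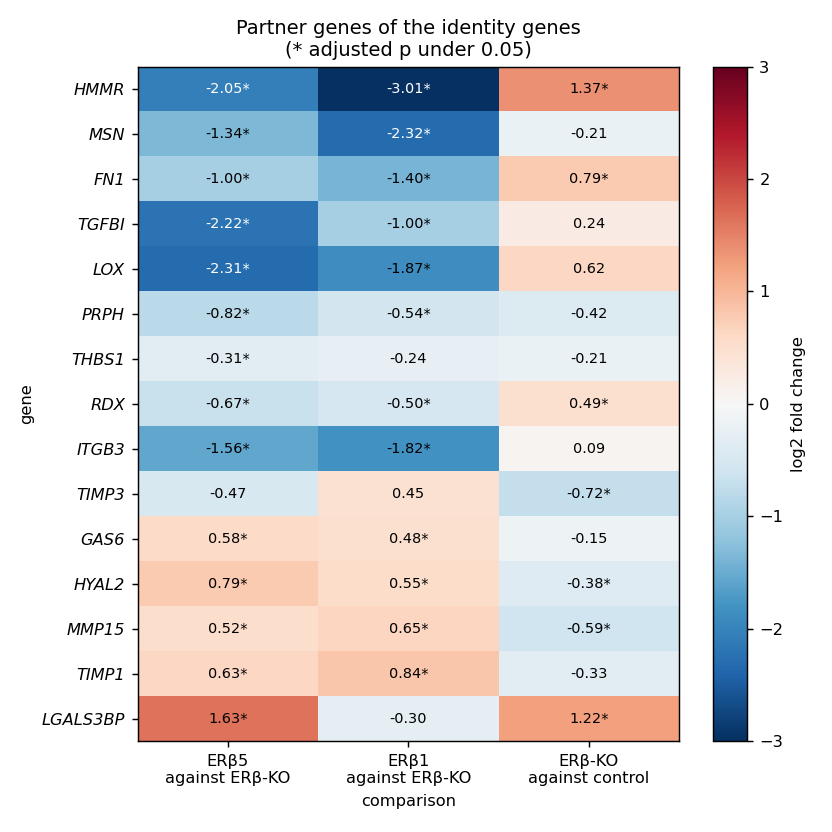
Log2 fold change of 15 genes that act with the identity genes or share their lists, in ERβ5 against ERβ-KO, ERβ1 against ERβ-KO and ERβ-KO against control, with red for higher and blue for lower in the group named first and an asterisk for an edgeR adjusted p under 0.05. HMMR, MSN, FN1, TGFBI and LOX are blue in both isoform columns, and GAS6, HYAL2, MMP15 and TIMP1 are red; several of these genes were picked after their values were seen, and the GAS6 and MMP15 calls were lost with GC and length trends removed.

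The genes whose pattern was most like that of a member were found by Pearson's r of log2 CPM over the 8 libraries, among 10589 genes with a mean of at least 5 CPM. For VIM these were ZNF26, MAD2L2 and ARRB2 (r = 0.976, 0.973 and 0.970), and for SOX2 they were BCL10, CRLF3 and BACH1 (r = 0.992, 0.987 and 0.982). For CD44 they were CAPN2, MFGE8 and TIGD1 (r = 0.974, 0.960 and 0.951), and for LGALS1 they were TMEM101, MB and MRPS14 (r = 0.992, 0.986 and 0.984). No gene was named for 2 members, and no member was named for another. These are descriptions over 8 libraries of 4 groups that share their sequencing and scaling, chosen as the highest of many, and carry no p.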

How the data were processed

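Total RNA of 8 libraries was sequenced as single-end reads of 50 bases, per the labels' protocols. The files hold whole read counts of each gene, as deposited, with no normalization. Per the submitters' processing notes, bcl2fastq, TopHat2 2.0.8b, HTSeq and hg19 were used; of HTSeq, neither version nor strand setting nor gene annotation is stated in the sources used here. Besides 23228 genes, each file has 5 summary entries, left out of all sums and tests; genes took 52.5 to 57.1% of reads, and 34.7 to 39.9% had no unique alignment.

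Genes were filtered with filterByExpr (minimum count 10, total 15), leaving 13915, scaled by TMM and tested in a single fit of all 8 libraries with edgeR 4.0.16 (quasi-likelihood F test, robust) in R 4.3.3. Benjamini-Hochberg adjustment covered every tested gene of a comparison; an adjusted p under 0.05 is a call. The standard error of a log2 change is its size over the root of F. The common biological coefficient of variation was 0.102. On simulated counts (13795 genes, ERβ-KO against control), 86.9% of genes changed by a log2 of 1 and 95% of those changed by 2 were called. These counts were drawn with the spread estimated in the same fit, and the shares are over genes of all levels. They need not hold for genes with as few reads as TNC, MMP2 and AXL. Replicate libraries correlated at 0.991 to 0.996 across genes, yet their counts differed by more than sampling noise (chi-square per degree of freedom 6.49 to 34.92). GENCODE's GRCh37 annotation gave lengths, GC content and positions, matched by symbol to 21312 genes.

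The 9 genes and the gene lists were chosen with earlier results of these data known. Named from a list are up to 6 genes by mean CPM that were called or reached 5 CPM, and defining genes at 0; others are marked where they appear. Some listed genes are counted but not reported by name here. The alternatives tried were relative log expression or upper-quartile size factors, no filter or 1 CPM in 2 libraries, a fit of the 2 groups alone, DESeq2 1.42.0, a replicate block, removal of GC and length trends, and leaving out each library, where a lone library is assumed to vary like the other groups.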

Additional observations from a re-analysis of the deposited data

How the results depend on the processing

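Of 48 tested changes of the 8 genes, 15 were called; of their 240 alternative values, 220 kept the call and direction, 0 reversed, and 8 of the 15 were kept in every alternative run. Of the 33 not called, 9 passed in at least 1 alternative. Depth limits AXL, TNC, MMP2 and GFAP most. The number of the 9 genes called moved as follows: in ERβ-KO against control it was 2 without a filter, in the 2-group fit and with DESeq2, against 1; in ERβ5 against ERβ-KO it was 5 without a filter, 4 with DESeq2 and 3 with upper-quartile factors, the filter of 1 CPM, the 2-group fit and the replicate block, against 2; in ERβ5 against ERβ1 it was 3 without a filter and 0 in the 2-group fit, against 1; in ERβ5 against control it was 4 without a filter, against 3. Leaving out a library gave ranges of 1 to 2 in ERβ-KO against control, 3 to 5 in ERβ1 against ERβ-KO, 1 to 6 in ERβ5 against ERβ-KO (lowest without ERβ-KO replicate 2, highest without either ERβ1 library), 0 to 2 in ERβ5 against ERβ1, 1 to 3 in ERβ1 against control and 2 to 3 in ERβ5 against control. Over all genes the number changed was 4351 in the 2-group fit of ERβ-KO against control (2434 in the main setting) and 2512 with trends of GC and length removed in ERβ5 against ERβ-KO (3922). In ERβ5 against ERβ1 it was 1375 without a filter, 421 in the 2-group fit and 1161 with trends removed (649). In ERβ1 against control it was 1384 without a filter, 1107 in the 2-group fit, 853 with DESeq2 and 1367 with trends removed (565), and in ERβ5 against control 3057 with trends removed (1831). Leaving out a library gave 237 to 3226 in ERβ-KO against control (lowest without control replicate 2), 1198 to 4203 in ERβ1 against ERβ-KO (without ERβ1 replicate 1), 1672 to 4378 in ERβ5 against ERβ-KO (without ERβ5 replicate 2), 125 to 1389 in ERβ5 against ERβ1 (without ERβ1 replicate 1), 128 to 975 in ERβ1 against control and 587 to 2143 in ERβ5 against control (both without control replicate 1). Values that turned sign belonged to changes that were not called. They were, for SOX2 in ERβ5 against control, -0.03 with upper-quartile factors, -0.01 without a filter and -0.02 with the replicate block; for MMP2 in ERβ-KO against control, 0.02 with the block and 0.08 with trends removed; with trends removed also NES at 0.11, CD44 at -0.01 and AXL at 0.04 in ERβ-KO against control, NES at -0.19 in ERβ1 against ERβ-KO and LGALS1 at -0.03 in ERβ5 against ERβ-KO. Sign also turned within the leave-one-out ranges in ERβ-KO against control of VIM (-0.59 to 0.08), NES (-0.44 to 0.15), TNC (-0.13 to 0.31), MMP2 (-0.49 to 0.58) and AXL (-0.48 to 0.37), of NES in ERβ1 against ERβ-KO (-0.22 to 0.37) and against control (-0.23 to 0.12), of CD44 (-0.11 to 0.02) and LGALS1 (-0.04 to 0.09) in ERβ1 against control, of SOX2 (-0.2 to 0.18) and AXL (-0.04 to 0.78) in ERβ5 against control and of AXL in ERβ5 against ERβ-KO (-0.01 to 0.87). The labels do not say that replicate numbers pair libraries, and deviations of same-numbered libraries correlated at -0.12 to 0.139; with the block, SOX2 in ERβ5 against ERβ-KO was called (-0.54) and no other call of the 8 genes changed. The cause of these moves was not tested. AXL did not pass the filter of 1 CPM in 2 libraries.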
